A study of Mus musculus with 10 samples.

Results

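Pank3, Pcyt2, Acsl4, Nampt, Csnk1g2, Aco1, Arhgap35, Brpf1 and Agfg2 are 9 genes whose promoters held a WT Srebp2 peak although none of them encodes an enzyme of sterol or fatty acid synthesis. They were selected on the WT Srebp2 list itself, so their presence in it is how they were chosen and not a finding. A promoter was the region within 2 kb of a transcription start site (TSS) of the GENCODE M21 annotation. Of 55450 annotated genes, 83 had a WT Srebp2 peak at the promoter, or 0.150%. The 9 genes are part of 38 protein-coding genes among these 83 that lie outside fixed lists of sterol synthesis, sterol uptake and fatty acid synthesis genes.

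The cells were oligodendrocytes differentiated in culture, with the thyroid hormone T3, from mouse neural stem cells labelled as FvB/C57BL6 hybrid, although the mice of the study are elsewhere described as C57BL/6J. The stem cells came from whole brains of Nestin-CreERT2;Qk L/L pups at postnatal day 1. Qk, which encodes the RNA-binding Qki proteins, was deleted in the stem cells with 4-hydroxytamoxifen before differentiation. The Cre was driven by the Nestin promoter, which is active in stem cells of all neural lineages. The methods describe this drug for the knockout alone and name no other source for the wild type cells. Genotype and drug treatment therefore cannot be told apart. Chromatin was precipitated with antibodies against Qki-5 (the nuclear Qki isoform), Srebp2 and Pol II, in wild type (WT) and Qk-/- cells, with 1 library per antibody in each genotype. Pol II and Qki-5 were precipitated at passage 7 and set against a common input in each genotype, and Srebp2 at passage 8 against separate inputs. Antibody and passage therefore cannot be told apart where Srebp2 is set beside the other proteins, and with no replicates no difference between genotypes has an error or a test.

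Srebp2 is a transcription factor held in the endoplasmic reticulum while sterols are plentiful. When sterols run low it is cut free, enters the nucleus and binds sterol response elements, usually next to sites for the general promoter factors NF-Y and Sp1, at genes of cholesterol synthesis and uptake. Oligodendrocytes need large amounts of cholesterol and phospholipid to build myelin. The 9 genes act around that pathway or far from it. Pank3 makes phosphopantothenate, the committed step toward coenzyme A, and Acsl4 joins coenzyme A to polyunsaturated fatty acids. Pcyt2 is the enzyme that makes CDP-ethanolamine for phosphatidylethanolamine synthesis. Nampt is the rate-limiting enzyme of NAD salvage, and Aco1 is the cytosolic aconitase that becomes an iron-regulatory RNA-binding protein when it loses its iron-sulfur cluster. Csnk1g2 is a membrane-bound casein kinase, Arhgap35 is the GTPase-activating protein p190A RhoGAP, Brpf1 is a scaffold of histone acetyltransferase complexes, and Agfg2 belongs to a family of ArfGAP-domain proteins.

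The DNA at or near the WT Srebp2 summits of 6 promoters is shown because it carries the 3 kinds of match described later. Sequences are on the strand of the gene, from the mm10 (GRCm38) genome, and the longer ones are centred on the summit, whereas the short Pcyt2 stretch lies just upstream of its summit. In Pank3 (chr11:35769333-35769433, plus strand), Pcyt2 (chr11:120617949-120617978, minus strand) and Arhgap35 (chr7:16615407-16615507, minus strand) the capitals mark the CCAAT box, which reads ATTGG where it lies on the opposite strand. In Agfg2 (chr5:137684911-137685011, minus strand) they mark a CCAAT box and then a GC box, and in Nampt (chr12:32820215-32820315, plus strand) 3 GC boxes, which read CCGCCC on the opposite strand. In Csnk1g2 (chr10:80622005-80622105, plus strand) they mark the pair of stretches that differ from the sterol response element by 1 base.
Pank3: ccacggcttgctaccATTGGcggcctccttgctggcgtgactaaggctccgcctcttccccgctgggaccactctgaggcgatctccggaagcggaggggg
Pcyt2: gttggcgcacgccATTGGctgcgccaagcg
Arhgap35: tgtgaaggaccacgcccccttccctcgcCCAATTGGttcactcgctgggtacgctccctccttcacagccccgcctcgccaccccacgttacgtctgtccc
Agfg2: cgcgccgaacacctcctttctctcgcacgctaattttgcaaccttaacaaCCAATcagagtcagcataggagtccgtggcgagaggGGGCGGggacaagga
Nampt: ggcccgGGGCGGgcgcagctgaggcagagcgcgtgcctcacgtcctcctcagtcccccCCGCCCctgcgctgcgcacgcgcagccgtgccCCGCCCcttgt
Csnk1g2: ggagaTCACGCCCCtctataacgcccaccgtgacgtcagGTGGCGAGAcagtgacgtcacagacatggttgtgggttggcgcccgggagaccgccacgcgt

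Each measurement is a called peak: a region with its summit, its fold enrichment (the pileup at the summit over the local background) and a q-value. Fold was ranked within its own list, rank 1 being the strongest, and folds of different lists are given side by side without comparing their size. The lists held 77 Srebp2 peaks in WT and 28 in Qk-/-, 7539 and 427 Qki-5 peaks, and 32280 and 12835 Pol II peaks. Raw ranks in lists of different length are likewise not on 1 scale. The lists are shorter than the peak sets the study describes for Srebp2 and Qki-5, for a reason not given in the sources used here, so ranks and missing calls hold for the deposited lists alone. Read totals are not in the lists, so depth is unknown, and a promoter without a peak is a promoter where none was called. The peaks of Srebp2 carry the name prefix OL, whereas the prefix for Pol II and Qki-5 peaks is mNSC. Only 3 of 10 oligodendrocyte markers (Cnp, Olig1 and Olig2) had a Pol II promoter peak in WT, and Mbp, Mag and Mog had none. Pol II promoter peaks were called at 5 of 6 astrocyte, 5 of 5 neural stem cell, 2 of 6 neuron and 0 of 6 microglia markers in WT. In Qk-/- the counts were 3, 5, 4, 1 and 0 in the same order, and the part of the cells' makeup in the values below was not tested.

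All 9 genes had a Pol II promoter peak in both genotypes, 6 had a Qki-5 peak in WT, and none had a Srebp2 or a Qki-5 peak in Qk-/-. Among all annotated genes, 28.4% had a Pol II promoter peak in WT and 23.0% in Qk-/-, 10.2% a Qki-5 peak in WT and 0.503% in Qk-/-, and 0.0577% a Srebp2 peak in Qk-/-. Promoters with Pol II are the nearer background. Of 11879 protein-coding genes with a WT Pol II peak, 34.6% had a Qki-5 peak in WT and 85.7% a Pol II peak in Qk-/-. The other 74 genes with a WT Srebp2 peak had a Qki-5 peak in WT in 42 cases (56.8%). By class these were 4 of 17 sterol synthesis enzymes, 2 of 5 fatty acid synthesis genes and 3 of 4 sterol uptake and sensing genes. Among genes outside those lists they were 20 of 29 protein-coding and 13 of 19 noncoding genes. The 6 of 9 here is close to the protein-coding genes outside the lists (20 of 29) and above the sterol synthesis enzymes. The noncoding genes are not independent of the 9. Among them Gdap10 shares the Srebp2 peak of Nampt, Gm43935 that of Brpf1, and Gm29443 and Gm44589 that of Arhgap35. The 83 genes with a WT Srebp2 peak had 61 distinct strongest peaks, so some peaks count more than once.

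**Figure D1:**
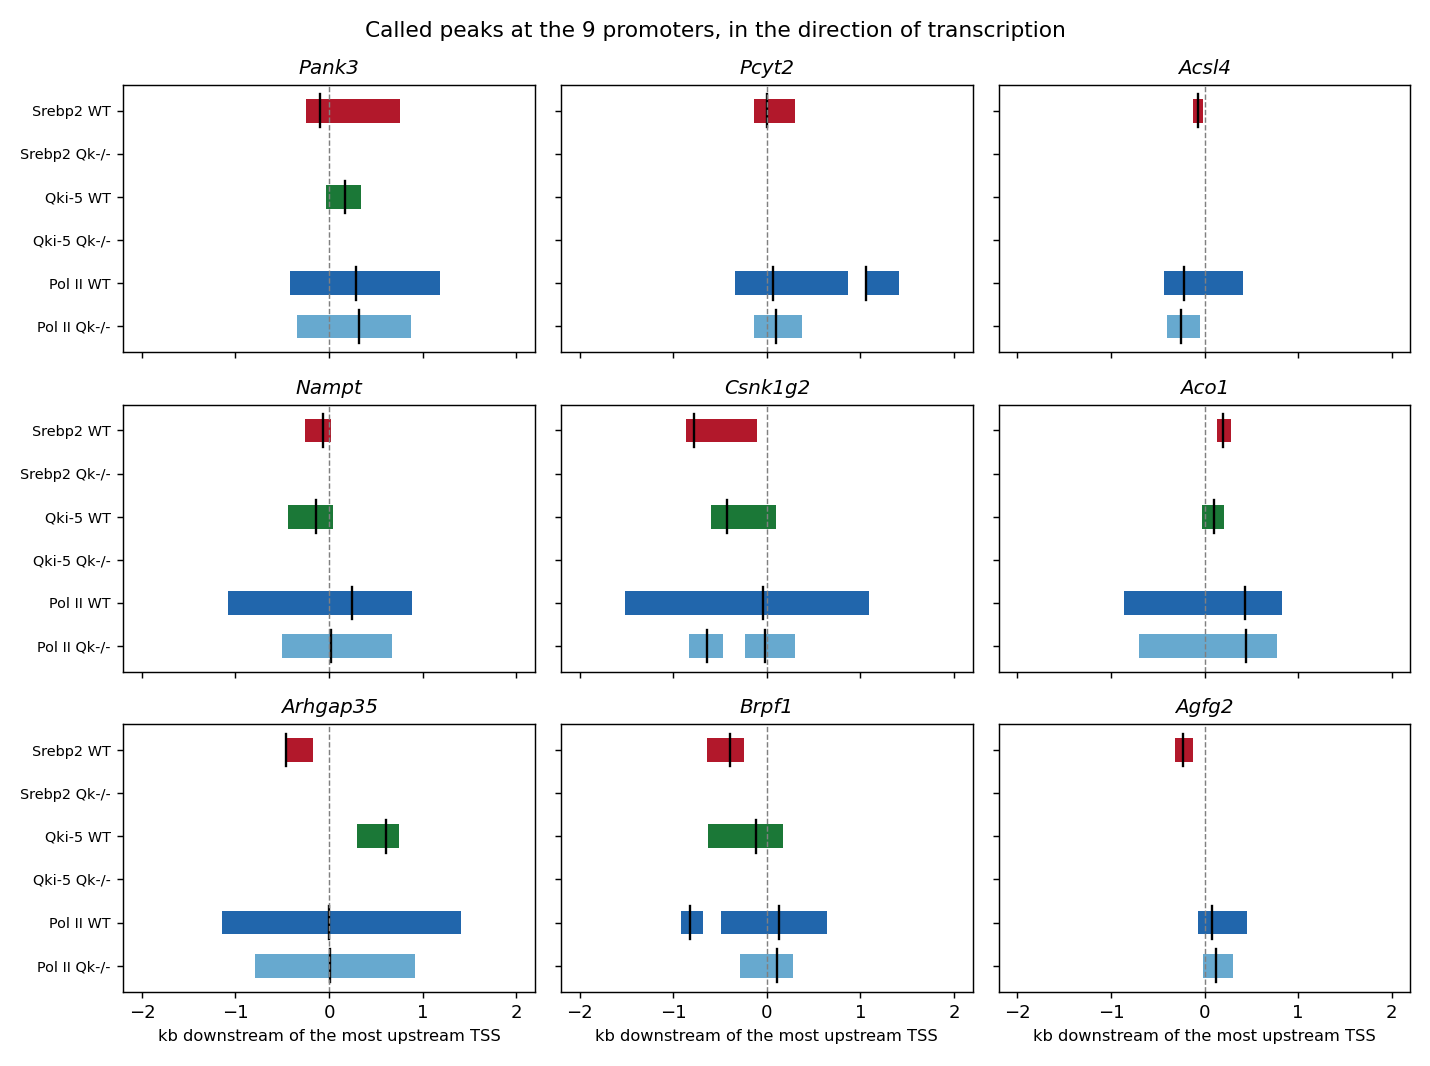
Called peaks at the 9 promoters, 1 panel per gene, plotted in kb downstream of the gene's most upstream TSS in the direction of transcription. Each row is 1 of the 6 lists, bars span the called regions and black ticks mark summits. The rows for Srebp2 and Qki-5 in Qk-/- are empty in all 9 panels, and the strongest WT Pol II bar is wider than the Srebp2 bar in every panel.

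Pank3 had the strongest Srebp2 peak of the 9 genes. The gene (ENSMUSG00000018846.8) lies at chr11:35769484-35791285 on the plus strand. Its WT Srebp2 peak spanned chr11:35769234-35770238, 1005 bp, the widest of the 9, with 20.4-fold enrichment (rank 13 of 77) and a summit 101 bp upstream of the TSS. The Qki-5 peak was 6.02-fold (rank 2551) with its summit in the 5′ UTR, 173 bp downstream of the TSS. The whole Qki-5 region lay inside the Srebp2 region. Pol II was 12.4-fold in WT (rank 7283 of 32280) and 14.2-fold in Qk-/- (rank 2521 of 12835), with summits 286 and 323 bp downstream of the TSS.

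Csnk1g2 followed closely in the Srebp2 list. The gene (ENSMUSG00000003345.16) lies at chr10:80622838-80640749 on the plus strand, and its Srebp2 peak at chr10:80621975-80622732 was 758 bp wide and 19.6-fold (rank 16). Its summit was 783 bp upstream of the TSS, the farthest of the 9. The Qki-5 peak was 4.67-fold (rank 5229) with a summit 427 bp upstream. Pol II in WT formed a single region of 2609 bp, 31.3-fold (rank 1167), with a summit 39 bp upstream of the TSS. In Qk-/- there were 2 Pol II regions, 1 at the TSS (10.8-fold, rank 4347, summit 23 bp upstream) and a weaker 1 (6.28-fold, rank 8761) 640 bp upstream. The weaker region overlapped the place of the WT Srebp2 peak.

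Pcyt2 had its Srebp2 summit almost on the start site. The gene (ENSMUSG00000025137.15, chr11:120610087-120617936, minus strand) had a Srebp2 peak at chr11:120617632-120618070, 439 bp wide and 13.4-fold (rank 24), whose summit was 5 bp from the nearest of its 2 TSSs, in the 5′ UTR of the longer transcript. No Qki-5 peak was called at the promoter, and the nearest was 6.67 kb away at 4.51-fold. Pol II was 32.5-fold in WT (rank 1029), the strongest of the 9, and 8.43-fold in Qk-/- (rank 6407). A second, weak WT region (3.61-fold, rank 27039) had its summit 1050 bp into the gene and had no counterpart in the Qk-/- list.

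Brpf1, Aco1 and Nampt lay near the middle of the Srebp2 list, whose median fold was 10.4. Brpf1 (ENSMUSG00000001632.16, chr6:113307137-113324860, plus strand) had a 394 bp peak at chr6:113306502-113306895, 10.8-fold (rank 36), with a summit 390 bp upstream of its own TSS. That summit was closer, 73 bp, to the TSS of Gm43935, an unclassified transcript on the opposite strand. With each peak given to its nearest TSS alone, Brpf1 was the 1 gene of the 9 that lost its Srebp2 peak. Its Qki-5 peak was 4.90-fold (rank 4747) and covered 388 of the 394 bp of the Srebp2 region. Pol II was 11.8-fold in WT (rank 7618) and 6.28-fold in Qk-/- (rank 8761), with summits 38 and 23 bp downstream of a TSS. A second, weak WT Pol II region (2.83-fold, rank 32107) had its summit 816 bp upstream, in an exon of Gm43935. It had no counterpart in the Qk-/- list.

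Aco1 was the only gene of the 9 with its Srebp2 summit downstream of the nearest TSS of the gene. The gene (ENSMUSG00000028405.9) lies at chr4:40143081-40198338 on the plus strand. Its peak at chr4:40143218-40143361 was 144 bp wide and 10.4-fold (rank 39), with a summit in the 5′ UTR 199 bp downstream of the TSS. A Qki-5 summit (4.73-fold, rank 5092) lay 94 bp upstream of the Srebp2 summit, 105 bp from the TSS. Pol II was 21.5-fold in WT (rank 3165) and 26.8-fold in Qk-/- (rank 420), which was the best Qk-/- rank of the 9, and its summits at 429 and 448 bp were the farthest downstream.

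Nampt had the highest Qki-5 rank of the 9. The gene (ENSMUSG00000020572.8) lies at chr12:32819545-32853349 on the plus strand, with its annotated basic TSS at 32820335. The Srebp2 peak at chr12:32820074-32820353 was 280 bp wide and 10.3-fold (rank 40), with a summit 70 bp upstream of that TSS. The annotated gene begins farther upstream, so all 280 bp of the peak lay within it. The Qki-5 peak covered all of it, with 8.18-fold enrichment (rank 605 of 7539) and a summit 68 bp farther upstream. Pol II was 14.3-fold in WT (rank 6325) and 5.46-fold in Qk-/- (rank 10107), the weakest Qk-/- peak of the 9. The summit was 242 bp downstream of the TSS in WT and 16 bp downstream in Qk-/-. The promoter of Gdap10, a noncoding RNA on the same strand, also took in this Srebp2 peak, at 1607 bp.

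Acsl4, Agfg2 and Arhgap35 had the weakest Srebp2 peaks of the set. Acsl4 (ENSMUSG00000031278.12, chrX:142317993-142390535, minus strand) had the narrowest, 108 bp at chrX:142390550-142390657, 8.47-fold (rank 52) with a summit 74 bp upstream. The nearest Qki-5 peak was 1880 kb away, the longest such stretch of the 3 promoters without Qki-5. Its Pol II summits were upstream of the TSS in both genotypes, by 221 bp in WT (9.56-fold, rank 9061) and by 253 bp in Qk-/- (10.7-fold, rank 4408). The Qk-/- region, chrX:142390584-142390938, ended 49 bp short of the TSS.

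Agfg2 (ENSMUSG00000029722.15, chr5:137650463-137684726, minus strand) had a 189 bp Srebp2 peak at chr5:137684852-137685040, 8.01-fold (rank 56), with a summit 235 bp upstream. The nearest Qki-5 peak was 75.2 kb away. Agfg2 had the weakest WT Pol II peak of the 9, 3.93-fold (rank 25557), and a 6.53-fold peak (rank 8523) in Qk-/-. It was also the only 1 of the 9 whose Pol II region missed the Srebp2 region, by 55 bp in WT and 108 bp in Qk-/-. In WT, 3 weak Pol II regions lay in its introns, between 12.6 and 25.2 kb downstream of the first TSS and at 2.88-fold to 4.97-fold, and none was called there in Qk-/-.

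Arhgap35 had the weakest Srebp2 peak of the 9. The gene (ENSMUSG00000058230.12) lies at chr7:16493719-16614993 on the minus strand, and its peak at chr7:16615160-16615458 was 5.96-fold (rank 69), with −log10 q of 2.94 and a summit 464 bp upstream. The summit lay 1 bp from the end of the called region and 29 of the 201 bases around it are marked as repeat in the genome. The Qki-5 peak (4.81-fold, rank 4843) lay on the other side of the TSS, 556 bp into the gene, and 459 bp separated the regions. Pol II by contrast was strong in both lists, 30.0-fold in WT (rank 1332) and 18.4-fold in Qk-/- (rank 1315), with summits 2 and 11 bp from the TSS. Pol II regions also lay around the 3′ end of the gene, 120 to 122 kb downstream of the first TSS, at 6.52-fold and 4.51-fold in WT and at 4.93-fold in Qk-/-. Gm44589, a pseudogene, and Gm29443, an antisense transcript, have TSSs 894 and 1633 bp from the Srebp2 summit and share the peak.

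The 9 Srebp2 peaks ranked from 13 to 69, with a median fold of 10.4 and a median width of 299 bp. The 17 sterol synthesis enzymes with a WT Srebp2 peak had a median fold of 19.7, from 4.49 at Mvk to 57.6 at Msmo1, a median rank of 15 and a median width of 517 bp. The groups overlapped. Pank3 and Csnk1g2 ranked beside Fdps (20.1-fold, rank 14) and Pmvk (19.7-fold, rank 15). Arhgap35, at the low end, still ranked above Mvk (rank 73).

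All 12 WT Srebp2 peaks ranked above Pank3 had an overlapping peak in the Qk-/- list. From Pank3 down, 6 of the 56 other peaks had 1 (10.7%), and 0 of these 9. Over the whole WT list the count was 18 of 77, or 23.4%. Ordered by −log10 q, 13 of 13 WT peaks above Pank3 and 5 of 55 others below it had a Qk-/- peak. Those below included Acly (12.6-fold, rank 26), which makes cytosolic acetyl-CoA, and the sterol enzyme Hsd17b7 (11.5-fold, rank 29), both between Csnk1g2 and Brpf1 by either order. The lowest fold in the Qk-/- list was 5.10. The nearest Qk-/- Srebp2 summit to any of the 9 was 176 kb from Csnk1g2, and no Qk-/- Srebp2 peak was called anywhere on the chromosomes of Acsl4, Nampt and Brpf1.

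**Figure D2:**
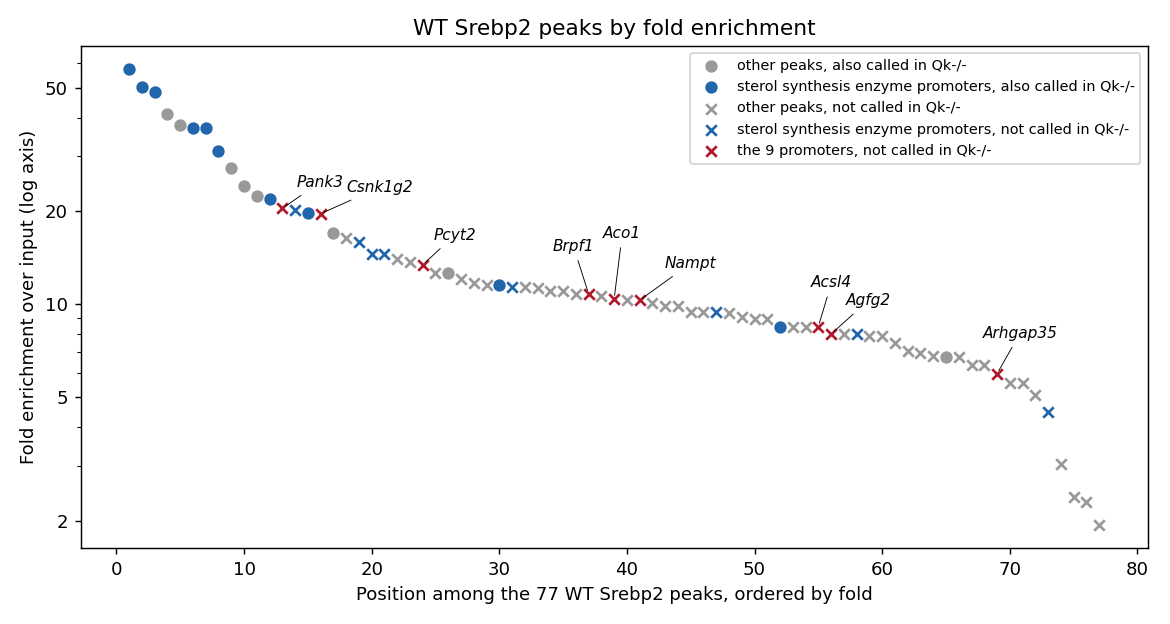
The 77 WT Srebp2 peaks ordered by fold enrichment over input (log axis). Red marks the 9 promoters, blue the sterol synthesis enzymes and grey the rest, circles are peaks with an overlapping Qk-/- Srebp2 peak and crosses are peaks without. The first 12 peaks are all circles, and the 9 promoters are crosses from rank 13 to rank 69.

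For the 6 genes with Qki-5, ranks ran from 605 for Nampt to 5229 for Csnk1g2, with a median at 63.6% of the list. Only Nampt and Pank3 exceeded the list's median fold of 5.34, and the other 4 lay between 4.67 and 4.90. Qki-5 and Srebp2 regions overlapped at 5 of the 6, with Arhgap35 as the exception, and summits were a median of 276 bp apart, from 68 bp in Nampt to 1076 bp in Arhgap35. The Qki-5 summit was downstream of the Srebp2 summit in 4 of 6 genes and upstream in Nampt and Aco1. At the 25 other protein-coding genes outside sterol synthesis that held both proteins, the median distance was 128 bp, 21 pairs of regions overlapped and 19 Qki-5 summits were downstream.

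Pol II fold in WT exceeded the list median of 5.22 in 8 of 9 genes, all but Agfg2, with a median at 19.6% of the list, and in Qk-/- the median was at 34.3% of the list, with 5 of 9 above the list median of 8.43. The lists differ in length and take in peaks outside promoters, so these values are not a comparison of the genotypes. Among the promoters with a Pol II peak in both lists, the 9 genes had a median percentile of 34.5 in WT, with 5 of 9 in the lower part, and of 52.6 in Qk-/-, with 4 of 9 in the lower part. The Pol II summit was downstream of the Srebp2 summit in 8 of 9 genes in both genotypes, with Acsl4 as the exception. The median distance was 316 bp in WT, from 58 bp in Pcyt2 to 744 bp in Csnk1g2, and 354 bp in Qk-/-. The sterol synthesis enzymes had the downstream order in 11 of 17 genes in WT, at a median of 229 bp. The other protein-coding genes with a WT Srebp2 peak had it in 28 of 38, at 203.5 bp. These 38 leave out the 9 and take in the fatty acid synthesis and sterol uptake genes.

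**Figure D3:**
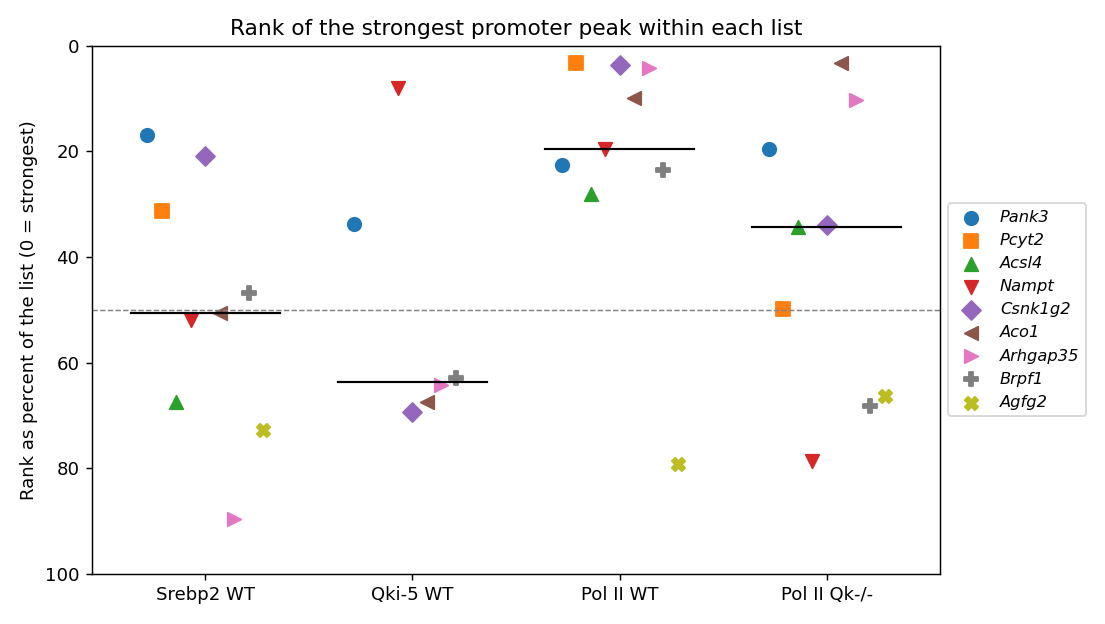
Rank of each gene's strongest promoter peak, as a percent of its list (0 at the top is the strongest), in the 4 lists where any of the 9 genes had a peak. Symbols are genes, black bars the median over the genes plotted and the dashed line the middle of the list. Ranked by fold, Nampt at 8.02% stands apart from the other 5 genes in the Qki-5 list, and Agfg2 at 79.2% is the only gene in the lower part of the WT Pol II list. Neither held when ranked by −log10 q, as given under the processing.

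Pol II positions were then set side by side over the 12723 promoters with a Pol II peak in both lists, as the percentile of the promoter's fold in each genotype (a high percentile is a strong peak). Over all of them the median change from WT to Qk-/- was 0.33 percentile points, with quartiles at -13.8 and 14.5, and 49.1% moved to a lower percentile. The 9 genes went both ways, and 4 of 9 were lower in Qk-/-. Pcyt2 had the largest drop, from percentile 87.8 to 34.8. Csnk1g2 went from 86.2 to 53.6 and Nampt from 34.5 to 9.83. Brpf1, from 23.7 to 16.7, stayed within the quartiles. In the other direction Pank3 went from percentile 26.1 to 71.7, Acsl4 from 14.2 to 52.6, Aco1 from 65.0 to 94.7 and Agfg2 from 0.527 to 18.3. Arhgap35 was at 84.3 and 84.7. The changes of Pcyt2, Csnk1g2, Pank3 and Acsl4 lay outside the range from -31.9 to 31.4, which holds the middle 80% of promoters by construction. Ranking by −log10 q in place of fold, a choice made after seeing the data, kept the direction for 8 genes, with Arhgap35 near 0 in both. It shrank the change of all 4 genes outside that range, from 45.6 to 24.9 points in Pank3, from 38.5 to 19.5 in Acsl4, from -32.6 to -10.1 in Csnk1g2 and from -53.1 to -38.5 in Pcyt2. The range over all promoters is by fold alone, so it does not apply to the changes by −log10 q. With 1 library a genotype these shifts have no error.

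**Figure D4:**
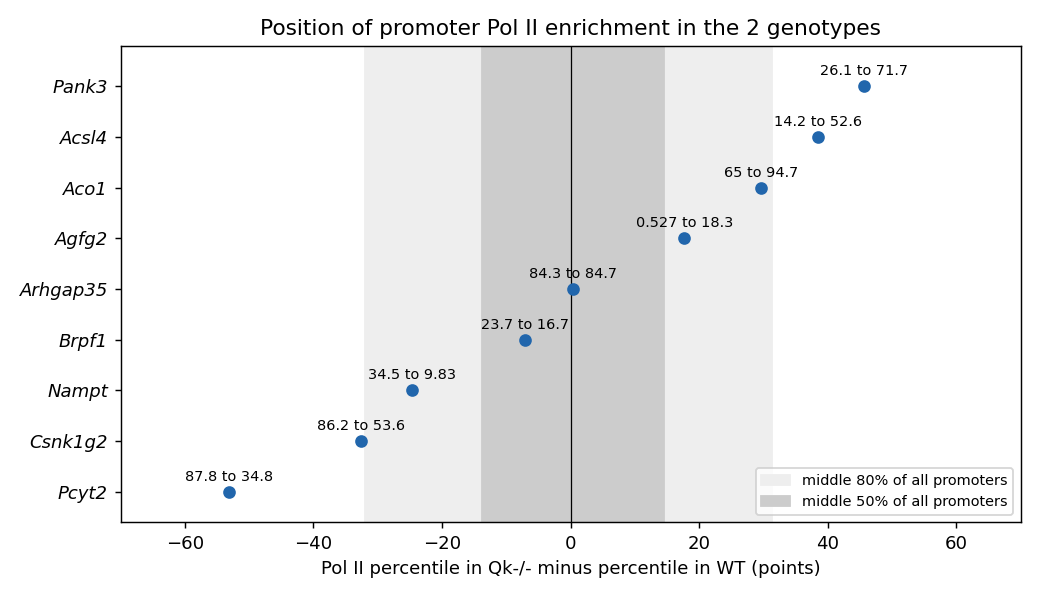
Change in the Pol II percentile of each promoter from WT to Qk-/-, in percentile points, with the percentile in each genotype written above the point. Dark and light bands hold the middle 50% and 80% of 12723 promoters. Pcyt2 and Csnk1g2 lie below the light band and Pank3 and Acsl4 above it.

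The letters around the Srebp2 summits were searched on both strands, 100 bp to each side, for the sterol response element (TCACNCCAC), a relaxed form of it (TCANNCCAC, which contains the first), the E-box CACGTG, the CCAAT box of NF-Y (CCAAT) and the Sp1 GC box (GGGCGG). For comparison, the same 201 bp window was placed on the first TSS of 21938 protein-coding genes. No exact sterol response element, relaxed element or E-box was found in the 9 windows, against 0.697%, 2.26% and 5.64% of TSS windows. A missing match says only that these letters are not in the window. Of the 17 sterol enzyme peaks 0 held the exact element and 3 the relaxed form, and of the 50 other Srebp2 peaks 6 held the exact element.

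A GC box was present in all 9 windows, against 41.6% of TSS windows, 13 of 17 sterol enzyme windows and 31 of 50 other windows. The 9 windows were rich in G and C, with a median of 67.2% (52.7% in Agfg2 to 78.6% in Nampt) against 59.2% at TSSs and 66.2% at sterol enzyme peaks, and the part of base composition in the GC box count was not tested. Within 50 bp of the summit 5 of 9 (55.6%) held a GC box, close to the 10 of 17 sterol enzyme windows (58.8%) and 27 of 50 others (54.0%). Among TSS windows of that size the share was 28.8%. The CCAAT box was present in 4 of 9 windows (44.4%), against 27.8% of TSS windows. Among sterol enzyme peaks it was present in 15 of 17 (88.2%), and among the other peaks in 34 of 50 (68.0%). In Agfg2, the window poorest in G and C, the centre of a CCAAT box was 2 bp from the summit. In Pank3 and Pcyt2 it was 33 bp upstream, and in Arhgap35 a pair of boxes, on opposite strands and overlapping, lay 20 and 17 bp upstream. Acsl4, Nampt, Csnk1g2, Aco1 and Brpf1 had none.

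A search that allowed 1 mismatch to the sterol response element, added after the exact search was seen, found a match in 7 of 9 windows, against 17.1% of TSS windows, 7 of 17 sterol enzyme windows (41.2%) and 20 of 50 others (40.0%). Pcyt2 and Brpf1 had none. In Csnk1g2 there were 2, centred 41 and 7 bp upstream of the summit, and the pair is printed in capitals above. The nearest match was 15 bp from the summit in Pank3, 29 bp in Agfg2, 32 bp in Arhgap35, 33 bp in Acsl4, 67 bp in Nampt and 91 bp in Aco1. The part of base composition in the count of windows with such a match was not tested.

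**Figure D5:**
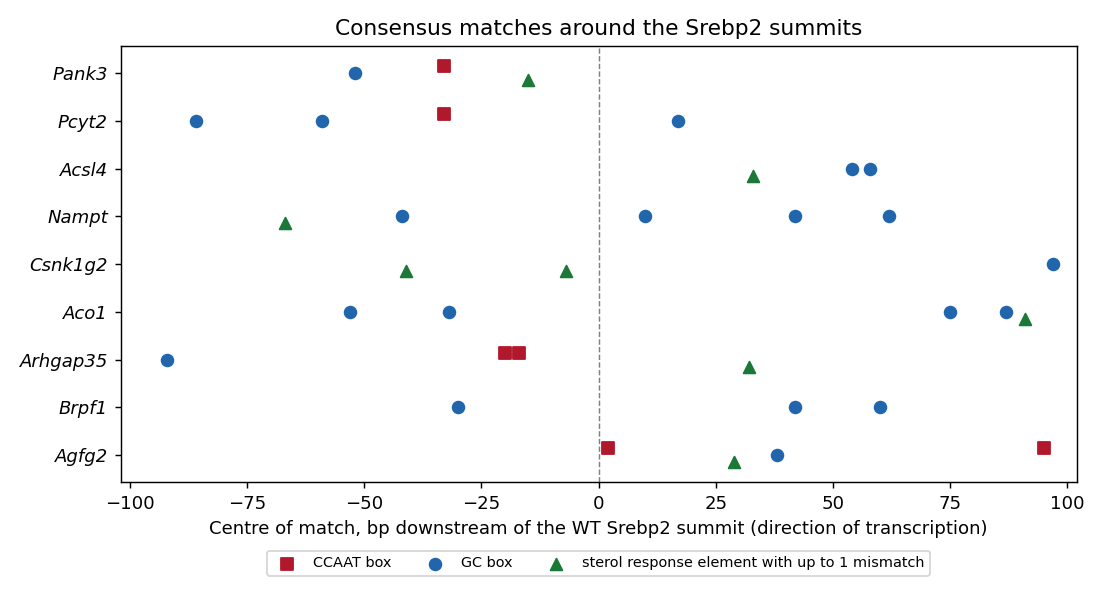
Centres of consensus matches within 100 bp of each WT Srebp2 summit, in bp downstream of the summit in the direction of transcription. Red squares are CCAAT boxes, blue circles GC boxes and green triangles matches to the sterol response element with up to 1 mismatch, none of them exact. Every promoter has a blue circle, and red squares appear in Pank3, Pcyt2, Arhgap35 and Agfg2 only.

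The relatives and pathway partners of the 9 genes were then listed, 49 genes in all without the 9 themselves. Only Acsl3, which activates long-chain fatty acids as Acsl4 does, had a WT Srebp2 promoter peak (6.73-fold, rank 65), and none had 1 in Qk-/-. Pol II promoter peaks were called at 46 of the 49 in WT and 44 in Qk-/-, and Qki-5 peaks at 18 in WT and 0 in Qk-/-. Among all protein-coding genes, 54.1% had a Pol II promoter peak in WT and 46.5% in Qk-/-. Of those with Pol II in WT, 34.6% had a Qki-5 peak in WT and 1.19% in Qk-/-. Since the 9 genes were chosen for a Srebp2 peak, the gap between them and their relatives in the WT Srebp2 list is set by the choice.

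In coenzyme A synthesis, the 3 other pantothenate kinases Pank1, Pank2 and Pank4 and the later enzymes Ppcs, Ppcdc and Coasy had Pol II in both genotypes, Qki-5 was called at Pank4 (5.02-fold), Ppcs and Coasy, and Srebp2 at none. By rank, Pank3 stood in place 6 of the 7 in the WT Pol II list and in place 1 in the Qk-/- list. In phosphatidylethanolamine and phosphatidylcholine synthesis, 9 of the 11 genes beside Pcyt2 had Pol II in each genotype. The choline branch enzyme Pcyt1a, the counterpart of Pcyt2, had Pol II at 15.2% of the WT list and 22.2% of the Qk-/- list (0% being the strongest) and neither Srebp2 nor Qki-5. Since the lists differ in length and take in peaks outside promoters, such percents are not a comparison of the genotypes. The choline kinase Chka had the strongest WT Pol II peak of this list (60.9-fold, rank 119). None of the 5 long-chain acyl-CoA synthetases had a Qki-5 peak.

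Among NAD synthesis genes Nampt shared Qki-5 with Nmnat1, an adenylyltransferase that completes NAD (7.27-fold, rank 1065), and with Nadk, the NAD kinase (4.54-fold, rank 5421). Nmnat1 Pol II stood at 6.67% of the WT list and 91.6% of the Qk-/- list. That of Nadk stood at 23.0% and 32.9%, and that of Nadsyn1, another NAD synthesis gene, at 19.5% and 17.8%. The percents of the WT and Qk-/- lists in this paragraph are likewise not a comparison of the genotypes. In the iron list, the second iron-regulatory protein Ireb2 had Pol II at 15.3% of the WT list and 99.2% of the Qk-/- list. Tfrc stood at 0.92% and 3.51%. The ferritin heavy chain Fth1 stood at 1.46% and 0.0467% and held the strongest Qki-5 peak of the iron list (9.85-fold, rank 223). The paralogs Arhgap5 (5.39-fold) and Agfg1 (5.52-fold) had Qki-5 peaks, Arhgap5 sharing this with Arhgap35, whereas Agfg2 had none. The other gamma casein kinases Csnk1g1 and Csnk1g3 had Pol II in both genotypes and neither factor. Of the Brpf1 paralogs, Brd1 and Brpf3 had Pol II alone, and of the catalytic partners Kat6a (7.25-fold, rank 1136) and Kat6b (3.80-fold, rank 6687) had Qki-5 and Kat7 had none.

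The 2 kb limit did not decide any of the 9. Their regions all reached to within 242 bp of a TSS of the gene, the farthest being that of Brpf1, followed by that of Arhgap35 at 167 bp. With each WT Srebp2 region set against its nearest TSS alone, the farthest still inside was 1632 bp from the TSS of Gm43072 (11.7-fold). The first outside was 3945 bp from that of Gm37231 (3.05-fold).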

How the data were processed

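The data were 6 ChIP-seq peak lists, for Pol II, Qki-5 and Srebp2 in each genotype, 1 library each. The methods give Trim Galore for trimming, Bowtie2 for alignment and MACS2 for peak calling against input. Processing notes from the submitters give mm10, MACS2 2.1.2, Bowtie 1.2.2 and bcl2fastq. The deposited fold enrichment is a ratio of the summit pileup to local background, the deposited −log10 p-value and −log10 q-value come from MACS2 at a q-value threshold of 0.05, and the deposited score is 10 times −log10 q. No read totals are in the lists, so depth and its precision are unknown. The 4 input samples were used only through these calls.

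Tables were handled in Python 3.11.15 (numpy 2.4.6, pandas 2.3.3), sequence was read with pysam 0.24.0, and matplotlib 3.10.9 drew the figures. A peak was assigned to every gene with a TSS (GENCODE M21 basic) within 2 kb of the region, and the strongest was ranked by fold within its list. Peaks were matched between lists at an overlap of at least 1 bp. Sequences came from the RefSeq GRCm38 assembly, whose chromosomes are those of mm10. UTR sequence was limited to 30 bases. No test was made, since each group is 1 library. The genes named were the 9, genes sharing their Srebp2 peak, and genes of fixed pathway lists. The 9 genes, the lists and the motifs were chosen with earlier results of these data known. Scripts were tested on simulated peaks. Alternatives covered the promoter width, peak strength, assignment, ranking and motif window. Some items are not reported here.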

Additional observations from a re-analysis of the deposited data

How the results depend on the processing

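The counts of the 9 genes with Srebp2 and Pol II peaks stayed within 1 gene under promoters of 1 kb or 2.5 kb, a q-value under 0.01, a fold of at least 5, summits inside the promoter and the nearest TSS alone. A fold of at least 5 cut the genes with Qki-5 in WT from 6 to 2, losing Csnk1g2, Aco1, Arhgap35 and Brpf1, while the share of all genes with such a peak fell to 5.88%. The Qki-5 peaks of these 4 genes were weak by fold, although that of Brpf1 ranked 1777 of 7539 by −log10 q. Ranking by −log10 q moved the median Qki-5 position from 63.6% to 41.8% of the list. It moved the Qki-5 peak of Pank3 from rank 2551 to 932, nearer to Nampt at 559. The WT Pol II peak of Agfg2 moved from rank 25557 to 14012 of 32280, out of the lower part of the list. The Qk-/- Pol II peak of Csnk1g2 moved from rank 4347 to 2366. With the Pol II peak nearest to the Srebp2 summit, the median distance in Qk-/- was 249 bp, because of the second Csnk1g2 region. Allowing 1 mismatch raised the genes with a match to the sterol response element from 0 to 7, and the share of TSS windows from 0.697% to 17.1%. With 1 mismatch allowed, 7 of 17 sterol enzyme windows and 20 of 50 others held a match. A window of 50 bp lowered those with a GC box from 9 to 5, while the share of TSS windows fell from 41.6% to 28.8%. One of 200 bp raised those with an E-box from 0 to 2 and those with the relaxed element from 0 to 1. At 200 bp an E-box was present in 3 of 17 sterol enzyme windows, 11 of 50 others and 8.88% of TSS windows. The relaxed element was present in 4 of 17, 9 of 50 and 4.83% of these windows. The mismatch search, the Pol II percentiles by −log10 q and the Srebp2 order by −log10 q were added after seeing the data. Leaving out replicates was not possible. No paired analysis was possible because each antibody and genotype has 1 library. Without read totals, lists of different length may differ in depth, and the part of depth in the missing Qk-/- calls was not tested.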
